A study of Mus musculus with 6 samples.

Results

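Hypoxia-inducible and glycolysis genes were examined in primary microglia (PM). The members are 43 genes listed by symbol, and all 43 were found among the 24411 genes of the count tables. They comprise 9 subunits and regulators of the hypoxia-inducible factors (HIFs), 10 hypoxia-inducible targets outside glycolysis, 5 genes of glucose and lactate transport and of pyruvate entry into mitochondria, and 19 glycolytic enzymes and their regulators. RNA-seq was compared at 4-h between 3 PM libraries that received 10 μM GSK-J4 and 3 that received 10 ng/ml LPS together with 10 μM GSK-J4. GSK-J4, a cell-permeable inhibitor of the H3K27 demethylases, was present in both groups. LPS is a bacterial cell wall component that activates TLR4. Every difference given is LPS + GSK-J4 against GSK-J4 alone, and the untreated and LPS-only libraries were not analysed here. PM were shaken off mixed glial cultures grown from the pooled brains of 12 ICR mice at postnatal day 3, and no oxygen level other than the normal incubator atmosphere is named in the labels.

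HIF-1α, encoded by Hif1a, and its relative HIF-2α, encoded by Epas1, pair with ARNT and bind short hypoxia response elements in the promoters and enhancers of their targets. With oxygen present, prolyl hydroxylases (Egln1, Egln2 and Egln3) mark the α subunits, the Vhl protein binds the marked subunit, and it is degraded. The targets include most enzymes of glycolysis, and LPS-activated macrophages and microglia are known to take up more glucose and make more lactate.

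The core of the hypoxia response element is the letters ACGTG or GCGTG. Promoters of 300 bases, 250 before and 50 after the transcription start, were taken from RefSeq (GRCm38.p6, the assembly also called mm10), which held at least 1 for 39 of the 43 members. None was held for Epas1, Bnip3l, Ndrg1 and Slc2a3. The 6 promoters printed here belong to the members that were down-regulated the most among enzymes, hydroxylases and other targets, and to Pgk1 and Gapdh, enzymes whose level did not differ beyond its spread. Capitals mark the core on either strand, so CACGT and CACGC are the same letters read on the opposite strand.
Hk2, chr6:82774405-82774704, minus strand: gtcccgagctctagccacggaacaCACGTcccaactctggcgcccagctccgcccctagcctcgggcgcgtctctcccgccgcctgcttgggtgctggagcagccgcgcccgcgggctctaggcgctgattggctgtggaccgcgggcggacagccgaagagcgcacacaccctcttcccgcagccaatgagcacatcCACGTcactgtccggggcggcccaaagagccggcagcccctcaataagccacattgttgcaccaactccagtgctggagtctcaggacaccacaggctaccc
Pfkfb3, chr2:11553880-11554179, minus strand: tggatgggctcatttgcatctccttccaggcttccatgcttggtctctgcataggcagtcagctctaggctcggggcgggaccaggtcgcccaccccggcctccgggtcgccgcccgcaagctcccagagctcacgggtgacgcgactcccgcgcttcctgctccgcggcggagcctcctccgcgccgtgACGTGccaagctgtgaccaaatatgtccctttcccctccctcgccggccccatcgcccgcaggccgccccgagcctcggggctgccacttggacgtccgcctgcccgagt
Egln3, chr12:54203825-54204124, minus strand: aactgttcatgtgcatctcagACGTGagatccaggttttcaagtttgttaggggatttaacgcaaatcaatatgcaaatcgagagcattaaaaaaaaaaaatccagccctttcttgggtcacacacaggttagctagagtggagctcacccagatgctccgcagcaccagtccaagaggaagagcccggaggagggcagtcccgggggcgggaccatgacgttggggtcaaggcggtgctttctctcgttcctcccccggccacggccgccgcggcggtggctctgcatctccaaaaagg
Bnip3, chr7:138909457-138909756, minus strand: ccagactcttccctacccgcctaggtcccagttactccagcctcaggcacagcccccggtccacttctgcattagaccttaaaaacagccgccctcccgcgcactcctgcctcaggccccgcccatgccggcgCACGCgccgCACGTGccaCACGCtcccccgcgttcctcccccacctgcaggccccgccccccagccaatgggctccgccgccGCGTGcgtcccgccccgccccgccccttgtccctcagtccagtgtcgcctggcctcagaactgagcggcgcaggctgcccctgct
Pgk1, chrX:106186850-106187149, plus strand: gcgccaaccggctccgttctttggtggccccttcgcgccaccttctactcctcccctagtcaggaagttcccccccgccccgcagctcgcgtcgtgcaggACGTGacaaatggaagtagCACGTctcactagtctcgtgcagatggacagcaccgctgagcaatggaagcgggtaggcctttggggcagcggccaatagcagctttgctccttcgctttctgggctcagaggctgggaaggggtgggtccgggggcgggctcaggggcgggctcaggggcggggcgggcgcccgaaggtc
Gapdh, chr6:125165724-125166023, minus strand: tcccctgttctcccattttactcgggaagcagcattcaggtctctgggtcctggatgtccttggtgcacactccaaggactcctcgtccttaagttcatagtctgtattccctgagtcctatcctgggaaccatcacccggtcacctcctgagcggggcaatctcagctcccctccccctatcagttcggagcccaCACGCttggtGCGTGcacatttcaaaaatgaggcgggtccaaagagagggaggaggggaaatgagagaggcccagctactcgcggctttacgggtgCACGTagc
In the Bnip3 promoter 1 of the matches lies in CACGTG, the E-box bound by other factors, which reads as a core on both strands. The core was found in a promoter of 34 of the 39 members (87.2%), where any promoter of a gene could hold it. Mxi1, Vegfa, Hk1, Aldoa and Pkm held it only in a promoter other than that nearest the annotated gene start. Genes with more promoters had more sequence to match, and the number per gene was not matched in the shares that follow. Among all 27025 genes with a promoter it was found in 46.7%, and among the 7788 genes tested for expression that had one it was found in 69.4%. The stricter letters ACGTG were found in 69.2% of the members and in 30.4% of the tested genes. Of the down-regulated members with a promoter, 13 of 14 held the core in at least 1 (92.9%), and of the other members 21 of 25 (84%), so the letters were common in both. Vhl, which was down-regulated, held none in this window. A match describes the letters only and is not a binding site.

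Between 2597505 and 3472716 fragments were counted on genes in each library, of which between 15512 and 36035 fell on the members. Levels are given as CPM, the counts scaled to library size with TMM factors, and 3 counts in a library correspond to between 0.673 and 1.24 CPM. Rn45s, the precursor of ribosomal RNA, held 25.6% ± 5.88 of all counts in GSK-J4 against 47.1% ± 1.15 in LPS + GSK-J4 (SD, n = 3), so the members were measured with fewer counts in the latter. Replicate 3 of each group stood apart from replicates 1 and 2 of its group, with a chi-square per degree of freedom of 5.81 to 12.5 against 2.12 and 2.32 between replicates 1 and 2. All 10 microglial markers were detected, and their summed level lay between 3246 and 3369 CPM in GSK-J4 and between 2554 and 2651 CPM in LPS + GSK-J4, where Csf1r and Cx3cr1 passed the test as lower. Markers of other brain cells were far lower but moved the other way. The 7 astrocyte markers summed to 51.2 to 56.5 CPM in GSK-J4 and to 126 to 153 CPM in LPS + GSK-J4, the 9 markers of the oligodendrocyte lineage to between 189.9 and 222 and between 366 and 423 CPM, and the 6 neuronal markers to between 19.6 and 23.8 and between 46.7 and 52.7 CPM. Of these, 3, 5 and 3 markers passed the test as higher and none as lower. No astrocyte, oligodendrocyte or neuronal marker was at 0 in all libraries. The 7 markers of fibroblasts and vessels summed to 79 to 274 CPM in GSK-J4 and to 133 to 417 CPM in LPS + GSK-J4, none passed the test, and Cldn5 was at 0 in all libraries. The part of Rn45s and of these cell types in the results was not tested. In bulk RNA, fewer microglia, less RNA per microglial cell and lower levels of single marker transcripts cannot be told apart.

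Of the 41 members with enough counts for the test, 15 (36.6%) were down-regulated, 1 was up-regulated and 25 did not pass, by edgeR's quasi-likelihood test with p values adjusted by Benjamini-Hochberg and a threshold of 0.01. Among all 10133 genes tested, 5.46% were down-regulated and 8.42% were up-regulated at this threshold. The median log2 fold change of the 41 members was -0.43, beside 0.00 over all genes tested, and 33 members had a negative and 8 a positive estimate. At the study's stricter criterion, which adds a log2 fold change of 1.5, Hk2 and Pfkfb3 passed as lower and 0 members as higher, beside 0.809% and 2.95% of all genes. The groups did not overlap for 22 members that were lower and 4 that were higher, beside 18.4% and 19.8% of all genes.

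The summed level of the 15 down-regulated members was 3288 ± 69.6 CPM in GSK-J4 but 1776 ± 112 CPM in LPS + GSK-J4 (SD, n = 3). These 15 were picked for being lower in the same libraries. The drop in their sum follows from that choice and is not a separate result. The summed level of all 43 members, called or not, was 8324 ± 275 and 6487 ± 635 CPM in the same order (SD, n = 3). Eno1 and Car9 had too few counts to be tested. The call of 9 of the 15 was kept in each of 15 alternative fits with the same threshold, and these were Hk2, Pfkfb3, Egln3, Bnip3, Vhl, Ero1l, Egln1, Hif1a and Pgam1. The 6 others, Ankrd37, Bnip3l, Ldha, Pdk1, Pfkl and Vegfa, lost their call in at least 1, and all 6 lost it without LPS + GSK-J4 replicate 2, where 9 members were down-regulated. Without GSK-J4 replicate 1, and likewise without replicate 2, 10 remained. Without replicate 3 of both groups, 19 members were down-regulated, 14 of the original 15 among them.

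**Figure D1:**
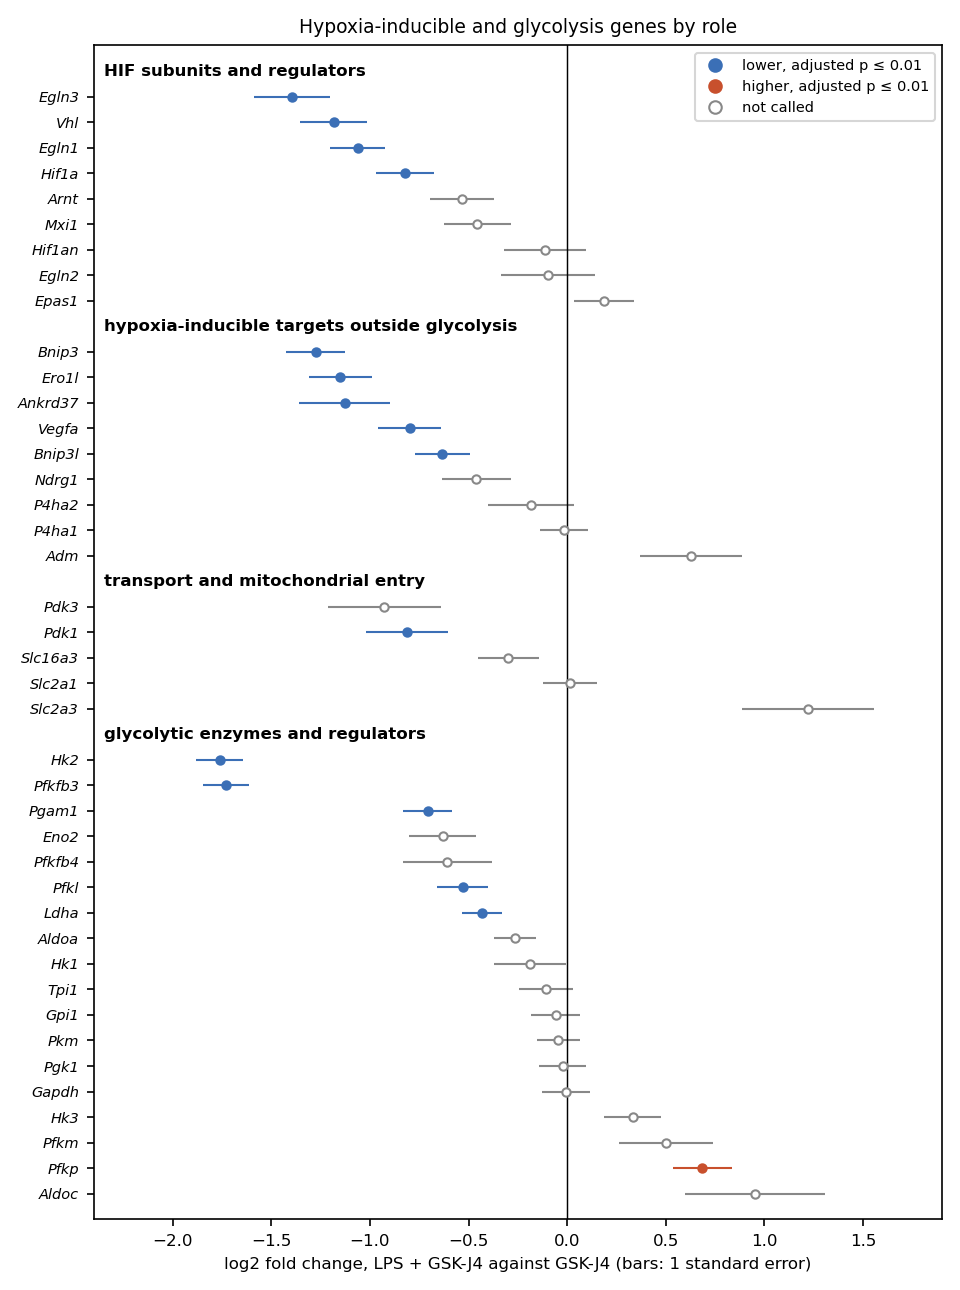
Log2 fold change of the 41 tested members, LPS + GSK-J4 against GSK-J4, with bars of 1 standard error, ordered by role from lowest to highest. Blue points are the 15 down-regulated members, the red point is Pfkp and open points did not pass, and the 2 lowest points are Hk2 and Pfkfb3.

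**Figure D2:**
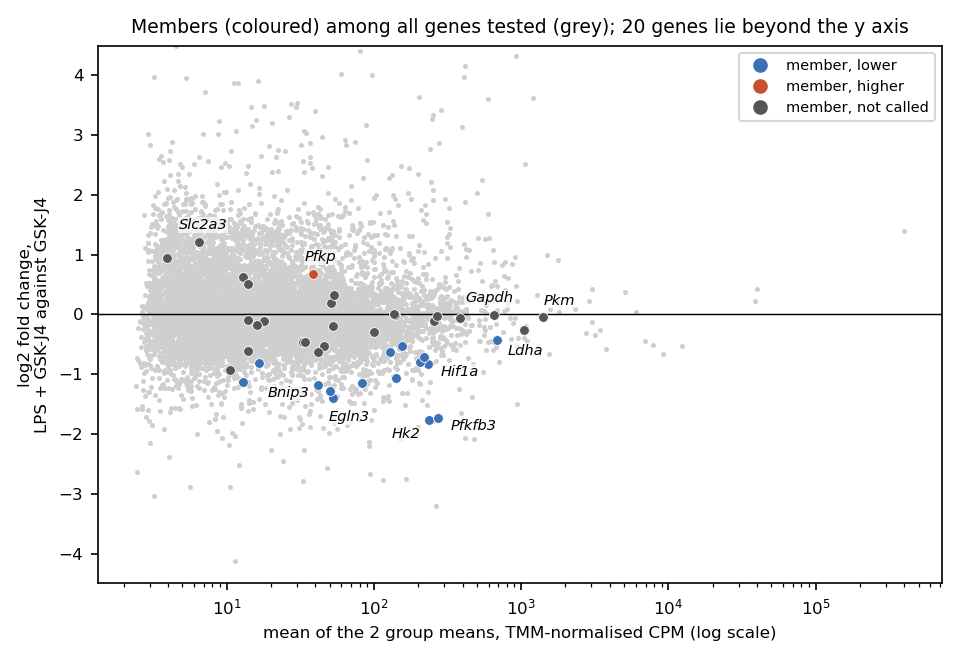
Log2 fold change (y axis) against mean level in CPM (x axis, log scale) for the 10133 genes tested, in grey, of which 20 lie beyond the y axis and are not drawn, with the members coloured by their call. The down-regulated members lie below 0 between about the level of Ankrd37 and that of Ldha, and the abundant enzymes Pkm and Gapdh lie close to 0.

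Among the 9 HIF subunits and regulators, 4 were down-regulated and 0 up-regulated, beside 5.46% and 8.42% of all genes tested. The median log2 fold change of the 9 was -0.53. Values are listed for replicates 1, 2 and 3 of each group in order. Adjusted p values of single genes are from edgeR's quasi-likelihood test unless another test is named. A standard error is the absolute log2 fold change divided by the square root of that test's F statistic. It therefore carries the same information as the unadjusted p value. Hif1a (chr12:73901375-73947530, plus strand, mm10), the oxygen-regulated α subunit, was at 312, 323 and 261 CPM in GSK-J4 and at 207, 163 and 136 CPM in LPS + GSK-J4. The groups did not overlap, and the level was 1.77-fold lower (log2 fold change -0.82 ± 0.15, adjusted p = 6.09e-04). Epas1 was at 47.6 ± 5.39 CPM and 54.0 ± 6.17 CPM (SD, n = 3), and its groups overlapped (log2 fold change 0.19, adjusted p = 0.418). Arnt, the shared partner of both α subunits, was at 57.8, 53 and 51.7 CPM in GSK-J4 and at 34.3, 45.8 and 32.2 CPM in LPS + GSK-J4. These groups did not overlap, but the difference missed the threshold (log2 fold change -0.53 ± 0.16, adjusted p = 0.0254).

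Of the 3 prolyl hydroxylases, Egln1 and Egln3 were down-regulated and Egln2 did not pass. Egln1 (chr8:124908587-124949324, minus strand), the main oxygen sensor, was at 179, 182 and 215 CPM in GSK-J4 and at 82.7, 83.2 and 109.8 CPM in LPS + GSK-J4 (log2 fold change -1.06 ± 0.14, adjusted p = 4.18e-05). Egln3 (chr12:54178981-54203860, minus strand), itself a HIF target, was at 83.8, 69.8 and 73.7 CPM in GSK-J4 and at 22.6, 23.7 and 40.5 CPM in LPS + GSK-J4. LPS + GSK-J4 replicate 3 was the highest of its group for both genes and still lay below every GSK-J4 library. The fold change of Egln3 was the largest of the 9 regulators, 2.63-fold lower (log2 fold change -1.40 ± 0.19, adjusted p = 6.91e-05). Egln2 was low throughout, at 14.7 ± 4.19 and 13.4 ± 0.626 CPM (SD, n = 3), with overlapping groups.

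Vhl (chr6:113623959-113631633, plus strand), which recruits the ubiquitin ligase to the hydroxylated α subunit, was at 50.2, 57.2 and 66 CPM in GSK-J4 and at 24.2, 22.1 and 29.7 CPM in LPS + GSK-J4. It was 2.27-fold lower with no overlap (log2 fold change -1.18 ± 0.17, adjusted p = 9.78e-05). Transcripts of HIF-1α, of 2 of its hydroxylases and of Vhl, which act in opposite directions on HIF activity, were all lower. Hif1an, the asparaginyl hydroxylase that blocks the transactivation domain, was at 18.7 ± 3.36 and 17.3 ± 1.88 CPM (SD, n = 3, adjusted p = 0.747). Mxi1, a HIF-induced antagonist of Myc, was at 38.3 ± 3.57 and 27.8 ± 3.60 CPM (SD, n = 3), and its lower level did not pass (log2 fold change -0.46, adjusted p = 0.0642).

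Of the 10 hypoxia-inducible targets outside glycolysis, 9 were tested. Of these, 5 were down-regulated and 0 up-regulated, beside 5.46% and 8.42% of all genes tested, and the median log2 fold change of the 9 was -0.63. Bnip3 and Bnip3l encode related mitochondrial proteins that direct mitochondria to autophagy. Bnip3 (chr7:138890836-138909519, minus strand) was at 79, 70.9 and 63.4 CPM in GSK-J4 and at 30.4, 28.6 and 29.3 CPM in LPS + GSK-J4. The 3 LPS + GSK-J4 libraries lay close together and far below the others (log2 fold change -1.27 ± 0.15, adjusted p = 1.24e-05). Bnip3l was at 167, 167 and 136 CPM in GSK-J4 and at 108, 112 and 83.8 CPM in LPS + GSK-J4. The groups did not overlap, and the level was 1.55-fold lower (log2 fold change -0.63 ± 0.14, adjusted p = 0.00352).

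Ero1l, the oxidase of the endoplasmic reticulum that forms disulfide bonds, was at 136, 110.2 and 95.7 CPM in GSK-J4 and at 42.1, 54.9 and 57.4 CPM in LPS + GSK-J4. It was 2.22-fold lower without overlap (log2 fold change -1.15 ± 0.16, adjusted p = 7.18e-05). Ankrd37, a small ankyrin repeat protein induced by HIF-1, was the least abundant of the called targets. It was at 18.9, 18.6 and 15.8 CPM in GSK-J4 and at 7.02, 8.01 and 9.50 CPM in LPS + GSK-J4, from between 18 and 23 counts per library in the latter (log2 fold change -1.13 ± 0.23, adjusted p = 0.00184). Vegfa, the angiogenic growth factor, was at 248, 253 and 282 CPM in GSK-J4 and at 111, 148 and 192 CPM in LPS + GSK-J4. The spread among the LPS + GSK-J4 libraries was wide for Vegfa, but the highest of them lay below the lowest GSK-J4 library (log2 fold change -0.80 ± 0.16, adjusted p = 0.00158). Without LPS + GSK-J4 replicate 2, the adjusted p of Vegfa was 0.0162, and those of Bnip3l and Ankrd37 reached up to 0.0217 and 0.0122 in the fits without GSK-J4 replicate 1, GSK-J4 replicate 2 or LPS + GSK-J4 replicate 2.

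The remaining targets did not pass. Ndrg1, a stress-induced gene and common hypoxia marker, was at 39.1 ± 1.85 and 28.6 ± 6.11 CPM (SD, n = 3) with no overlap (adjusted p = 0.0714). P4ha1 and P4ha2, the α subunits of collagen prolyl hydroxylase, were at 140 ± 5.77 and 139 ± 13.9 CPM and at 17.0 ± 2.07 and 15.1 ± 3.16 CPM (SD, n = 3), and both pairs of groups overlapped. Adm, encoding the vasodilator peptide adrenomedullin, was the 1 tested target with a positive estimate, at 9.95 ± 2.29 and 15.7 ± 4.15 CPM (SD, n = 3, log2 fold change 0.63, adjusted p = 0.0941). Car9, a carbonic anhydrase at the cell surface and a widely used hypoxia marker, had 17, 9 and 9 counts in GSK-J4 and 7, 5 and 8 counts in LPS + GSK-J4, too few to test. Its level was therefore near the limit of detection at this depth in both groups.

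**Figure D3:**
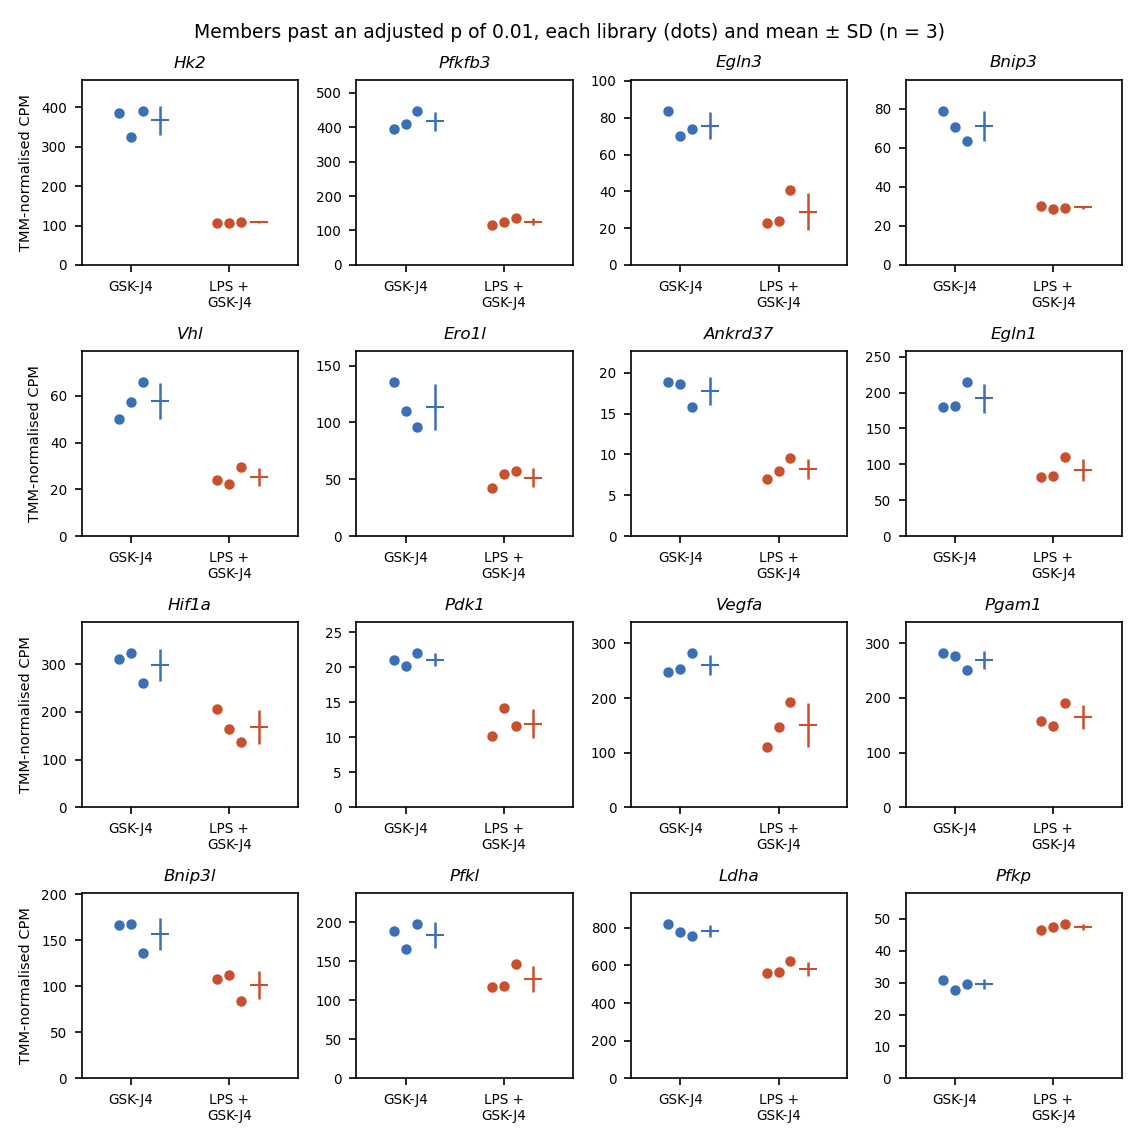
TMM-normalised CPM (y axes, from 0) of the 16 members that passed, with a dot for each library and a cross for the mean ± SD (n = 3). In every panel the GSK-J4 and LPS + GSK-J4 libraries do not overlap, and Pfkp is the 1 gene that is higher in LPS + GSK-J4.

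Among the 5 genes of transport and mitochondrial entry, 1 was down-regulated and 0 up-regulated, beside 5.46% and 8.42% of all genes tested. Slc2a1 and Slc2a3 encode the glucose transporters GLUT1 and GLUT3. Slc2a1 was at 148, 119.9 and 144 CPM in GSK-J4 and at 120.2, 136 and 159 CPM in LPS + GSK-J4. The groups overlapped, and the standard error of the log2 fold change of 0.01 was 0.14 (adjusted p = 0.962). Slc2a3 was far lower, with 10, 21 and 13 counts in GSK-J4 and 18, 26 and 25 counts in LPS + GSK-J4, or 3.95 ± 1.38 and 9.09 ± 1.80 CPM (SD, n = 3). Its groups did not overlap in CPM, but the difference missed the threshold (log2 fold change 1.22 ± 0.34, adjusted p = 0.0148). GLUT3 is the main glucose transporter of neurons, whose markers were also higher in LPS + GSK-J4, and their part in this value was not tested.

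Slc16a3, the lactate exporter MCT4, was at 111 ± 11.0 and 90.2 ± 20.2 CPM (SD, n = 3) and did not pass (adjusted p = 0.184). Pdk1 and Pdk3 encode kinases that inhibit pyruvate dehydrogenase and so limit pyruvate entry into the citric acid cycle. Pdk1 was at 21, 20.2 and 22 CPM in GSK-J4 and at 10.1, 14.1 and 11.6 CPM in LPS + GSK-J4. It passed narrowly (log2 fold change -0.81 ± 0.21, adjusted p = 0.00921), and the call was lost when any 1 library was left out, with adjusted p values between 0.0123 and 0.0406. Pdk3 was at 13.8 ± 4.84 and 7.38 ± 0.490 CPM (SD, n = 3), with no overlap, and did not pass (adjusted p = 0.0272).

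Of the 19 glycolytic enzymes and regulators, 18 were tested, 5 were down-regulated and 1 was up-regulated, beside 5.46% and 8.42% of all genes tested. The median log2 fold change of the 18 was -0.15, nearer to that of all genes than in the other roles. The largest estimates were those of a hexokinase and of the kinase that controls phosphofructokinase. Hk2 (chr6:82725025-82774454, minus strand) encodes hexokinase 2, which traps glucose in the cell as glucose 6-phosphate. It was at 386, 325 and 391 CPM in GSK-J4 and at 107, 108 and 109.8 CPM in LPS + GSK-J4, 3.39-fold lower with a very small spread in the latter (log2 fold change -1.76 ± 0.12, adjusted p = 2.17e-08). Pfkfb3 (chr2:11471433-11554077, minus strand) encodes the kinase that makes fructose 2,6-bisphosphate, the strongest activator of phosphofructokinase 1. It was at 394, 410.5 and 447 CPM in GSK-J4 and at 116, 126 and 136 CPM in LPS + GSK-J4, 3.31-fold lower (log2 fold change -1.73 ± 0.12, adjusted p = 2.10e-08). For both genes the highest LPS + GSK-J4 library was far below the lowest GSK-J4 library, and neither call was lost in any alternative.

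None of the tested isozymes of these 2 steps passed. Hk1, the ubiquitous hexokinase, was at 56.5 ± 10.6 and 49.3 ± 10.7 CPM (SD, n = 3) with overlapping groups (adjusted p = 0.503). Hk3, the hexokinase of myeloid cells, was at 44.6, 46.2 and 51.3 CPM in GSK-J4 and at 52.7, 62.2 and 63.6 CPM in LPS + GSK-J4. These groups did not overlap, but the difference did not pass (log2 fold change 0.33 ± 0.14, adjusted p = 0.11). Pfkfb4, a second kinase of fructose 2,6-bisphosphate, was at 16.9 ± 1.93 and 11.1 ± 2.10 CPM (SD, n = 3, adjusted p = 0.0648).

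Phosphofructokinase 1, the rate-limiting enzyme, has 3 subunit genes. Pfkl, the most abundant of them, was at 188, 166 and 198 CPM in GSK-J4 and at 117, 119 and 146 CPM in LPS + GSK-J4 (log2 fold change -0.53 ± 0.13, adjusted p = 0.00698). Its call was kept without LPS + GSK-J4 replicate 3 and lost in the 5 other fits that left out a library, with adjusted p up to 0.0524. Pfkp (chr13:6579768-6648777, minus strand) was at 30.9, 27.8 and 29.7 CPM in GSK-J4 and at 46.4, 47.3 and 48.3 CPM in LPS + GSK-J4, 1.61-fold higher and without overlap (log2 fold change 0.68 ± 0.15, adjusted p = 0.00321). The up-regulation of Pfkp was called in 3 of the 6 fits that left out a library, with adjusted p up to 0.0299 in the fits without GSK-J4 replicate 1, GSK-J4 replicate 2 or LPS + GSK-J4 replicate 2, and it was not called by DESeq2. Between 5.65 and 10.1% of the Pfkp fragments in a library lay on the opposite strand and were not used. Pfkm was at 11.5 ± 1.21 and 16.2 ± 4.02 CPM (SD, n = 3), and its groups overlapped (adjusted p = 0.145).

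In the later steps of the pathway, Pgam1 and Ldha were down-regulated. Pgam1, phosphoglycerate mutase, was at 282, 276 and 252 CPM in GSK-J4 and at 158, 148 and 190.4 CPM in LPS + GSK-J4, 1.63-fold lower without overlap (log2 fold change -0.71 ± 0.12, adjusted p = 5.32e-04). Ldha, the lactate dehydrogenase subunit that makes lactate, was at 819, 778 and 755 CPM in GSK-J4 and at 558, 563 and 622 CPM in LPS + GSK-J4. This was the smallest down-regulation that passed, 1.35-fold (log2 fold change -0.43 ± 0.10, adjusted p = 0.0059). The call of Ldha was lost without replicate 1 or replicate 2 of either group, with adjusted p up to 0.0444, and kept without either replicate 3.

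The enzymes between and beside these steps did not pass the test. Gapdh, the internal control of the study's qRT-PCR, was at 697, 633 and 649 CPM in GSK-J4 and at 599.9, 583 and 787 CPM in LPS + GSK-J4, and the groups overlapped (log2 fold change -0.01 ± 0.12, adjusted p = 0.975). Pgk1 was at 272 ± 34.5 and 268 ± 11.4 CPM, Tpi1 at 266 ± 21.4 and 247 ± 49.1 CPM, Gpi1 at 391 ± 18.4 and 375 ± 59.6 CPM and Pkm at 1438 ± 48.9 and 1394 ± 170.4 CPM (SD, n = 3). The groups of each of these 4 genes overlapped, and their standard errors were between 0.11 and 0.14 on the log2 scale. Aldoa, the main aldolase, was at 1146 ± 95.7 and 953 ± 83.0 CPM (SD, n = 3), with no overlap, and did not pass (log2 fold change -0.27, adjusted p = 0.0901). Aldoc, the aldolase of astrocytes, had between 8 and 14 counts per library and was at 2.66 ± 0.288 and 5.14 ± 0.571 CPM (SD, n = 3), with no overlap (log2 fold change 0.95, adjusted p = 0.0657), and the astrocyte markers were also higher in LPS + GSK-J4. Eno2, the neuronal enolase, was at 50.9 ± 4.29 and 32.8 ± 6.75 CPM (SD, n = 3), with no overlap, and just missed the threshold (log2 fold change -0.63, adjusted p = 0.0131), while the neuronal markers were higher in LPS + GSK-J4. The part of astrocytes and neurons in the Aldoc and Eno2 values was not tested.

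Eno1, the main enolase of most cells, had 1 count in each of 2 libraries and 0 in the 4 others. The near-identical gene Eno1b held between 221 and 501 counts per library, at 115 ± 8.49 and 104.5 ± 26.3 CPM (SD, n = 3), and did not pass (log2 fold change -0.14, adjusted p = 0.586). Fragments that fit both genes equally well were not counted, so the level of enolase 1 is uncertain. Gapdh, Ldha, Pgk1, Pgam1 and other glycolytic genes also have processed pseudogenes in the mouse genome and may be undercounted for the same reason. The summed level of 17 genes of the glycolytic steps and lactate dehydrogenase was 5975 ± 233 CPM in GSK-J4, against 5087 ± 559 CPM in LPS + GSK-J4 (SD, n = 3).

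Per kb of exon, Aldoa had the highest value of the members in both groups, at 394 ± 32.9 and 327 ± 28.5 CPM per kb (SD, n = 3), followed by Pkm, Ldha and Gapdh. The divisor is the union of all annotated exons, which can be longer than the transcript present. The order of the genes therefore depends on these lengths, whereas the fold change of a gene between the groups does not. Pkm and Ldha were at 288 ± 9.78 and 237 ± 9.76 CPM per kb in GSK-J4, and at 279 ± 34.1 and 176 ± 10.7 CPM per kb in LPS + GSK-J4. Hk2 was at 61.5 ± 6.19 CPM per kb in GSK-J4 and at 18.1 ± 0.255 in LPS + GSK-J4 (SD, n = 3). By this measure Gpi1 was at 60.6 ± 2.86 in GSK-J4 and Hk3 at 16.2 ± 1.61 in LPS + GSK-J4 (SD, n = 3). The exon unions were 5969 bp for Hk2, 6452 bp for Gpi1 and 3682 bp for Hk3. Pfkfb3 was at 55.2 ± 3.60 and 16.6 ± 1.32 CPM per kb (SD, n = 3).

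**Figure D4:**
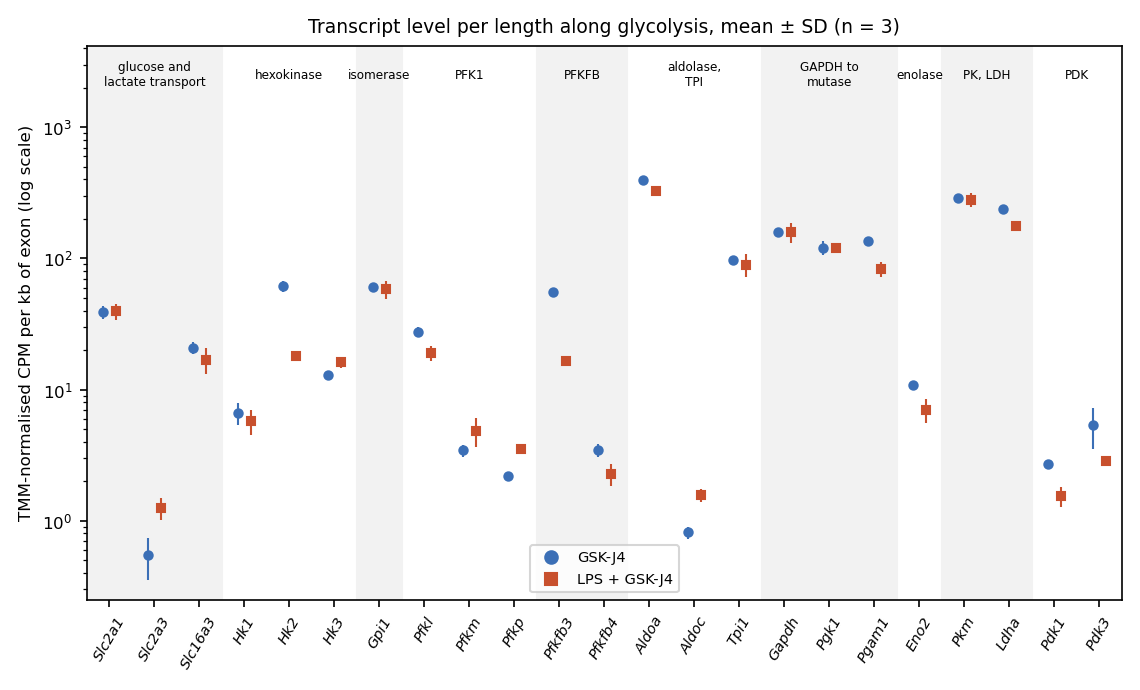
Transcript level in TMM-normalised CPM per kb of exon (y axis, log scale) of the tested transport, glycolytic and mitochondrial entry genes in pathway order, mean ± SD (n = 3). Hk2 and Pfkfb3 are separated between the groups by the widest gap, whereas Slc2a1, Gpi1, Gapdh, Pgk1 and Pkm lie close together.

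Ratios between related genes, each per kb of exon within a library, were compared to describe isozyme use. Of the 16 ratios computed, 12 did not overlap between the groups. Some genes enter more than 1 ratio, and ratios of other gene pairs were not computed, so no background share stands beside this count. Among all single genes tested, 18.4% were lower and 19.8% were higher without overlap. An exact 2-sided permutation test of 3 libraries against 3 cannot give p below 0.1, which these 12 ratios reached (adjusted p = 0.133 over the 16 ratios). Hk2 exceeded Hk3 by 5.33, 4.32 and 4.68 times in the GSK-J4 libraries and by 1.25, 1.07 and 1.06 times in the LPS + GSK-J4 libraries. The hexokinase 2 to hexokinase 3 ratio thus moved from 4.76 to 1.12 (geometric means), the largest shift of the 16. The exon unions, 5969 bp for Hk2 and 3682 bp for Hk3, set the size of both ratios but not the shift between them. In mean CPM, Hk2 was at 367 and Hk3 at 47.4 in GSK-J4, and at 108 and 59.5 in LPS + GSK-J4. Per kb of exon, Pfkl exceeded Pfkp by 12.2, 11.9 and 13.3 times in GSK-J4 and by 5.05, 5.02 and 6.06 times in LPS + GSK-J4. The exon union of Pfkp, 13401 bp, is longer than the 6675 bp of Pfkl, so the size of this excess rests on the lengths. In mean CPM, Pfkl was at 184 and Pfkp at 29.5 in GSK-J4, and at 127 and 47.4 in LPS + GSK-J4. The ratio of Hif1a to Epas1 was 6.87, 6.58 and 4.61 in GSK-J4 and 3.36, 3.29 and 2.26 in LPS + GSK-J4. Replicate 3 had the lowest Hif1a to Epas1 ratio in each group.

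Among the hydroxylases, Egln1 exceeded Egln2 by 10.3 times in GSK-J4 and by 5.23 times in LPS + GSK-J4 (geometric means), whereas the Egln1 to Egln3 ratio, at 1.87 and 2.41, overlapped. Bnip3 was below Bnip3l in every library, with ratios of 0.774 and 0.502. Pfkfb3 exceeded Pfkfb4 by 15.8 and 7.29 times, and the ratios of Slc2a1 to Slc2a3, at 72.5 and 31, and of Aldoa to Aldoc, at 459.7 and 200.4, rested on the low counts of Slc2a3 and Aldoc. The ratios Pfkm to Pfkp, Pdk1 to Pdk3 and P4ha1 to P4ha2 overlapped.

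**Figure D5:**
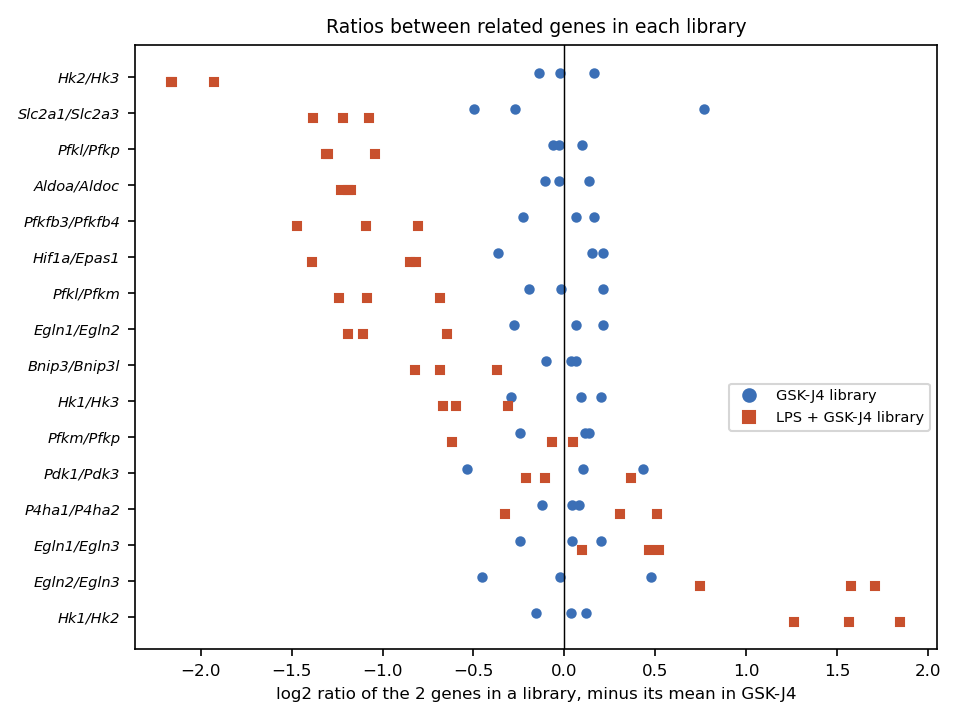
Log2 ratio of the genes in each of 16 pairs, per kb of exon, minus its mean in GSK-J4 (x axis), with 1 point per library. The Hk2/Hk3 ratio lies 2.08 log2 units lower on average in the 3 LPS + GSK-J4 libraries, and 12 of the 16 pairs do not overlap.

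Other genes of these pathways, from lists of 76 genes, were given the same test. Of the 64 tested, 10 (15.6%) were down-regulated and 8 up-regulated, beside 5.46% and 8.42% of all genes tested. Of 15 further HIF regulators, 0 were down-regulated and 3 were up-regulated. Cited2, which competes with HIF-1α for the coactivators CBP and p300, was at 29, 25.4 and 35.2 CPM in GSK-J4 and at 94.1, 77.1 and 111 CPM in LPS + GSK-J4, 3.18-fold higher without overlap (log2 fold change 1.67 ± 0.17, adjusted p = 2.55e-06). The ARNT relatives Arnt2 and Arntl were up-regulated by 1.17 and 0.84 on the log2 scale (adjusted p = 0.00174 and 0.00551). The call of Arntl was lost in the DESeq2 test and without any 1 of 4 libraries, namely GSK-J4 replicate 1, 2 or 3 or LPS + GSK-J4 replicate 1. That of Arnt2 was lost without GSK-J4 replicate 1 (adjusted p = 0.0117). Genes of the VHL ubiquitin ligase other than Vhl, namely Tceb1, Tceb2, Cul2 and Rbx1, did not pass.

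Of 20 tested hypoxia-inducible genes outside the members, 6 (30%) were down-regulated and 4 up-regulated, beside 5.46% and 8.42% of all genes tested. Bhlhe40, a transcriptional repressor, was at 729, 830.1 and 799 CPM in GSK-J4 and at 198, 219 and 225 CPM in LPS + GSK-J4 (log2 fold change -1.88 ± 0.11, adjusted p = 3.99e-09). Cxcr4, the chemokine receptor for CXCL12, was at 624, 689 and 688 CPM in GSK-J4 and at 169, 167 and 141 CPM in LPS + GSK-J4 (log2 fold change -2.07 ± 0.12, adjusted p = 2.25e-09). For both genes the groups lay far apart. Kdm3a, a histone demethylase, Fam162a, a mitochondrial protein, Plod1, a lysyl hydroxylase, and Trf, the iron carrier transferrin, had log2 fold changes of -1.09, -1.07, -0.70 and -0.54. The call of Kdm3a was kept in all 15 alternative fits, and those of Fam162a, Plod1 and Trf were lost without LPS + GSK-J4 replicate 2 (adjusted p = 0.0114, 0.0143 and 0.0165). The up-regulated genes included Lox, Plod2 and Pdgfb, at log2 fold changes of 1.18, 0.96 and 0.72 (adjusted p = 1.67e-05, 0.00208 and 0.00272). Lox and Plod2 encode enzymes that crosslink or modify collagen, and Pdgfb encodes a growth factor. The call of Plod2 was lost without GSK-J4 replicate 2 or LPS + GSK-J4 replicate 2 (adjusted p up to 0.0177), that of Pdgfb without GSK-J4 replicate 1 or 2 (adjusted p up to 0.024), and that of Lox in none of the 15 fits.

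In the branches of glucose metabolism, Gys1, the glycogen synthase, and Pygl, a glycogen phosphorylase, were both down-regulated. Gys1 was at 133, 105 and 133 CPM in GSK-J4 and at 44.9, 44.6 and 79.3 CPM in LPS + GSK-J4 (log2 fold change -1.14 ± 0.19, adjusted p = 4.11e-04), and Pygl had a log2 fold change of -0.93 ± 0.13 (adjusted p = 8.35e-05). Slc2a6, the glucose transporter-like protein GLUT6, was up-regulated from 20.5, 21.1 and 18.3 CPM to 55.8, 59.9 and 67.7 CPM (log2 fold change 1.60 ± 0.16, adjusted p = 1.88e-06). Of the 10 tested genes of pyruvate entry outside the members, Pdhb, a subunit of pyruvate dehydrogenase, and Pdp1, its activating phosphatase, were down-regulated, at log2 fold changes of -0.85 and -0.82 (adjusted p = 7.12e-04 and 0.0027). The call of Pdp1 was lost without GSK-J4 replicate 1, GSK-J4 replicate 2 or LPS + GSK-J4 replicate 1, with adjusted p up to 0.0168. Among all genes tested, 5.46% were down-regulated and 8.42% up-regulated in the main fit. The 7 genes of the pentose phosphate pathway, which branches off at glucose 6-phosphate, had a median log2 fold change of -0.06. By edgeR's quasi-likelihood test 0 of these 7 passed, and 0 had an unadjusted p under 0.05.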

How the data were processed

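RNA-seq libraries of PM, 3 per group, were analysed, with groups taken from the labels. The libraries were rRNA-depleted and strand-specific, with paired-end reads. Per the labels and methods, the authors trimmed the reads with Trimmomatic 0.33, aligned them to mm10 with STAR 2.5.1 and deposited raw counts of fragments per gene, with no normalization. STAR counts fragments that map to a single place and overlap 1 gene. The annotation behind the counts is not given in the sources used here, and positions and exon lengths are from GENCODE M21. Reverse-strand counts, which the directional kit gives, were used, and tallies of unassigned fragments were left out.

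Counts were tested in R 4.3.3 with edgeR 4.0.16 (TMM factors, filterByExpr at 10 counts and at least 15 in total, robust quasi-likelihood test, no covariates). Benjamini-Hochberg adjustment ran over 10133 genes, with calls at 0.01, and the common biological coefficient of variation was 0.133. CPM per kb divides by the union of exons. Ratios of related genes used a pseudocount of 0.5 counts and an exact permutation test. The scripts were tested on simulated data. DESeq2 1.42.0 served as an alternative, as did other scalings, filters, thresholds, unstranded counts, a block for the replicate number and fits without single libraries. Figures were made in Python 3.11.15 with matplotlib 3.10.9.

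The members, the gene lists and the tests were chosen with earlier results of these data known. Every member is accounted for, members that passed are given in every library, and of the other lists the genes that passed are named, except 1 gene that is not reported here. The study describes biological triplicates, but the labels do not say that libraries came from separate cultures, so the p values measure the spread between these libraries, which may be partly technical.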

Additional observations from a re-analysis of the deposited data

Results flagged for a closer look

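Fragments on the strand opposite to that of the transcript were not used in the comparisons. For Pfkp, their number was 11, 14 and 6 in the GSK-J4 libraries (replicates in order) and 11, 11 and 7 in those of LPS + GSK-J4, with a lowest value of 6 and a highest of 14. They made up between 5.65 and 10.1% of the fragments assigned to Pfkp on either strand, while this share over all genes lay between 0.966 and 1.38% per library. The lower bound of the exact 95% binomial interval of the Pfkp share, which covers counting error only, lay above the share of the library in all 6 libraries. The signal was present in both groups alike, and its source was not tested. Fragments of Pfkp's own strand, which the comparison used, numbered between 81 and 131 per library.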

How the results depend on the processing

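The 15 members called lower kept their call with unstranded counts, DESeq2's size factors, upper quartile scaling and removal of the ribosomal features Rn45s, Mir6236 and Lars2. They also kept it without a filter on low counts and with at least 10 counts in every library. At an adjusted p of at most 0.05 in the same fit they pass by definition, since this threshold is looser. The DESeq2 Wald test called 14 of them, without Pdk1. No scaling moved the median of all genes by as much as 0.1 on the log2 scale. Each of these scalings assumes that most genes do not change, so this small shift cannot show that the assumption holds. The number of members higher, 1 in the main fit, was 2 with unstranded counts, without a filter, with at least 10 counts in every library, with the replicate block and at an adjusted p of at most 0.05, Slc2a3 being added, and 0 with DESeq2. Adding the log2 fold change of 1.5 left 2 members lower and 0 higher, 2 further pathway genes lower and 2 higher (4 in all), and 82 genes lower and 299 higher of all genes (381 in all). Of all genes, 858 were lower without a filter. At an adjusted p of at most 0.05 there were 1004 lower and 1386 higher genes (2390 in all).

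Leaving out each library in turn gave between 9 and 17 members lower and between 0 and 1 higher, a median of the members between -0.46 and -0.30, between 312 and 679 genes lower and between 920 and 1604 genes lower or higher, and between 5 and 8 further pathway genes higher. Fewer libraries entered these fits. Whether replicate numbers pair the libraries is not settled by the correlations of same-numbered deviations, which were -0.01, 0.12 and 0.29. GSK-J4 replicate 3 correlated best with LPS + GSK-J4 replicate 3. GSK-J4 replicate 1 correlated best with LPS + GSK-J4 replicate 2 (0.09), and GSK-J4 replicate 2 with LPS + GSK-J4 replicate 1 (0.24). With the replicate block 19 members were lower, and 1016 of all genes were lower and 2275 lower or higher, against 553 and 1406 without it. Leaving out replicate 3 of both groups was chosen after seeing the data and gave 19 members lower.

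Sign changes were found for values near 0 that had no call. Slc2a1 was at -0.002 with unstranded counts, -0.035 with DESeq2, -0.041 without a filter and -0.054 without replicate 3 of both groups, where Egln2 was at 0.16 and P4ha1 at 0.065, and the Pdk1 to Pdk3 ratio changed by -0.015 (log2) with a pseudocount of 3 counts. Over the fits without 1 library, the log2 fold change lay between -0.25 and 0.036 for Hif1an, -0.065 and 0.066 for P4ha1, -0.16 and 0.072 for Gapdh, -0.11 and 0.068 for Pgk1, -0.10 and 0.10 for Slc2a1, -0.25 and 0.12 for Egln2, -0.20 and 0.005 for Gpi1, and -0.15 and 0.018 for Pkm, and the change of the ratio lay between -0.25 and 0.23 for Pdk1 to Pdk3 and between -0.01 and 0.41 for P4ha1 to P4ha2. The causes were not tested. Depth limits the members with few counts, among them Car9, Aldoc, Slc2a3, Ankrd37, Pdk3 and Adm.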
